A study of Mus musculus with 12 samples.

Results

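Carbonic anhydrases are the enzymes that methazolamide (MTZ) inhibits, and their transcripts were followed here in single cells from mouse aortas labelled ApoE-/-. The 10 genes were taken by name from the 4 gene expression matrices, namely Car2, Car3, Car4, Car5b, Car7, Car8, Car9, Car12, Car13 and Car14. They are 10 of 16 Car genes among the 32245 gene symbols counted. They were listed by name, with earlier results of these data known.

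Each group was 1 library made from 6 pooled aortas, out of 18 mice per group by the study's methods. By the labels and methods all mice were male C57BL/6J animals with the ApoE-/- genotype, were 8 weeks old at the start and were fed for 24 weeks. The Healthy group received a normal diet and saline, and the AS group a high-fat diet with cholesterol and saline. The MTZ-treated and MTZ-preventive groups received the high-fat diet with intragastric MTZ at 25 mg/kg every other day, the former for the last 12 weeks and the latter for all 24 weeks. With 1 library per group there was no replicate, so no test between groups was possible, and every interval given is a 95% interval that covers counting error only. The 3 comparisons, AS against the library labelled Healthy and each MTZ library against AS, share the AS library.

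A carbonic anhydrase turns carbon dioxide and water into bicarbonate and a proton, and back again. The forms differ in where they sit. Car2, Car3, Car7 and Car13 are cytosolic, Car4 is tethered to the outer face of the plasma membrane, Car9, Car12 and Car14 span the membrane with their active site outside, Car5b lies in mitochondria, and Car8 has lost the catalytic activity and is known for binding the inositol trisphosphate receptor. Car4 is a known marker of capillary endothelium, and Car3 is abundant in fat, muscle and liver.

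Apoe, which the labels give as deleted in every group, went against the label of the Healthy library. It was at 658.6 CPM there (counts per 1000000 UMIs of the same cells), from 18835 UMIs (unique molecular identifiers, 1 for each captured transcript molecule), and at 11.1 CPM in AS, 12.5 CPM in MTZ-treated and 8.38 CPM in MTZ-preventive. The first is therefore called the library labelled Healthy throughout. Whether its mice carried the deletion, or the library was mislabelled, is not known from these data, so in AS against this library diet and genotype cannot be told apart. The study's cell filters passed 12339 of 21857 deposited barcodes in the library labelled Healthy and 2199 of 6908 in AS. In MTZ-treated 7212 of 20938 passed, and in MTZ-preventive 16316 of 23963. After the study's cell filters and removal of called doublets, the libraries held 2160 to 14186 cells, 3679094 to 33165558 UMIs and a median of 1294 to 1893 UMIs per cell, with AS the smallest on all 3 counts. Between 24 and 237 cell barcodes were shared by a pair of libraries. Cells were put in classes by marker genes (at least 3 markers of a class and 2 more than of any other), which placed 59.2% to 77.6% of the cells, and no member of the family was a marker. All 12 markers of endothelial, smooth muscle and fibroblast cells were detected in each library. B, T and NK cells were 5127 of 11121 cells in the library labelled Healthy and 26 of 2160 in AS, and adipocytes were 38 of 11121 and 254 of 2160.

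Promoter sequences are shown for 3 of the members for which one was found. They are Car4 and Car7, both higher in small vessel than in venous endothelial cells, and Car9, a known hypoxia gene that was close to undetected. The sequences are from RefSeq, build GRCm38.p6, 250 bases before to 50 after the annotated start, which was found for 6 of the 10 members. None was found for Car2, Car3, Car8 or Car13, so the promoter of Car3, the member with the most UMIs, is not shown. In the first 2 sequences capitals mark GGAA or its reverse complement TTCC, the core letters of sites for ETS factors, which are active in endothelium. In the last one they mark CACGT, the reverse complement of ACGTG, the core of the hypoxia response element. The windows are chr11:84957504-84957803 for Car4, chr8:104534450-104534749 for the most upstream of 3 starts of Car7 and chr4:43506776-43507075 for Car9, all on the plus strand.

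Car4: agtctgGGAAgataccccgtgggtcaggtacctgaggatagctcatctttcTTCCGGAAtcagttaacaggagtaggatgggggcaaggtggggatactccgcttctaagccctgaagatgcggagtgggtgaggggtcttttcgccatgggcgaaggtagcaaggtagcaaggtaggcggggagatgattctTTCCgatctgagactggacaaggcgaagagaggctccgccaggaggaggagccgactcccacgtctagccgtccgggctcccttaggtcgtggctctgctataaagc
Car7: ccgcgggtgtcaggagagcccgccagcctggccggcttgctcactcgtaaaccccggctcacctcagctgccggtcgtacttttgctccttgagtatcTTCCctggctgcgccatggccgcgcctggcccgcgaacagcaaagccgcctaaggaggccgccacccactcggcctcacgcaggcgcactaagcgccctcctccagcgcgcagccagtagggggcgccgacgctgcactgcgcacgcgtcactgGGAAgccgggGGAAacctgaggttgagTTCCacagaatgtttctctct
Car9: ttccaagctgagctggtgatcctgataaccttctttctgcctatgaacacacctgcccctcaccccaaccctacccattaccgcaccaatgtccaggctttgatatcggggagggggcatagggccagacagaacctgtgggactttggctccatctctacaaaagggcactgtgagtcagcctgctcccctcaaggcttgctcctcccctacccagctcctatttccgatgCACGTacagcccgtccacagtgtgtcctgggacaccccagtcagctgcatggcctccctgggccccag

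GGAA on either strand was found 4 times in each of the Car4 and Car7 windows. It was present in 96% of 32851 mouse promoters of this length, with a median of 3 matches, and 46.3% held as many as these. ACGTG on either strand was present in 19.6% of promoters. It had 1 match each in Car4, Car9 and Car14, and none in Car5b, Car12 or the 3 starts of Car7. These matches describe letters in the windows and were not tested as binding sites.

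Over all cells, the UMIs of the 10 members ranged from 19 for Car9 to 18680 for Car3 over the 4 libraries, and 7 members had at least 100. Against the library labelled Healthy, AS held more Car3, Car4, Car5b and Car13 and less Car2 and Car14 in CPM, each by more than 2-fold. The Car14 value rests on 1 UMI in AS, and its interval includes a ratio of 1. These were 6 of the 8 members with at least 20 UMIs over both libraries, where 30.6% of 15443 genes passed the same fold (9.65% higher and 21% lower). In MTZ-treated against AS, 4 of 7 members passed 2-fold, Car8 higher and Car3, Car4 and Car5b lower, with 17.9% of all genes past it (11.7% higher and 6.18% lower). In MTZ-preventive against AS, 4 of 7 passed, Car2 higher and again Car3, Car4 and Car5b lower, with 20.3% of all genes past it (15.2% higher and 5.13% lower). A level over all cells mixes the share of each cell class with the level inside it, so the members are taken class by class in the following paragraphs.

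**Figure D1:**
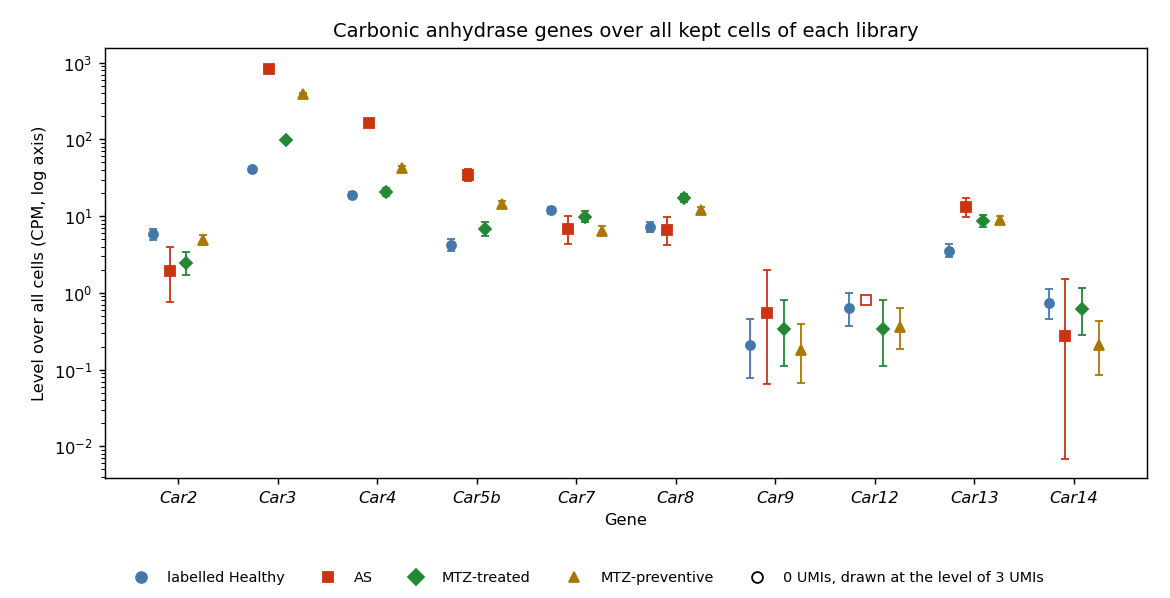
Level of each carbonic anhydrase over all kept cells of the 4 libraries, in CPM on a log axis, with 95% Poisson intervals for counting error; open symbols stand for 0 UMIs and are drawn at the level of 3 UMIs. Car3, Car4 and Car5b are highest in AS and lowest in the library labelled Healthy, whereas Car7 is highest in the library labelled Healthy.

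Car3, a cytosolic form of low activity, was an adipocyte transcript in these aortas. In adipocyte-gated cells it stood at 8351 CPM (7775 to 8960, 778 UMIs in 38 cells) in the library labelled Healthy, at 4009 CPM (3845 to 4179, 2250 UMIs in 254 cells) in AS and at 2771 CPM (2714 to 2828, 9133 UMIs in 861 cells) in MTZ-preventive. MTZ-treated had 18 such cells with 625 Car3 UMIs, of which 420 came from 1 cell, and no level is read from it. Adipocyte-gated cells held 65.7%, 73.1%, 43.8% and 70.3% of all Car3 UMIs in the library labelled Healthy, AS, MTZ-treated and MTZ-preventive, in that order.

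The level over all cells and the level inside adipocytes ran in opposite directions between AS and the library labelled Healthy. Over all cells Car3 was at 41.4 CPM (1184 UMIs) in the library labelled Healthy, 836.9 CPM (3079 UMIs) in AS, 97.7 CPM (1427 UMIs) in MTZ-treated and 391.7 CPM (12990 UMIs) in MTZ-preventive, so AS was 20.2-fold higher (18.9 to 21.6). Inside adipocyte-gated cells AS was 2.08-fold lower (1.92 to 2.26). Adipocyte-gated cells were 0.342%, 11.8%, 0.265% and 6.07% of the cells in the same order of libraries, which is the same order as that of Car3 over all cells except for the 2 lowest. The summed level of the 12 adipocyte markers over all cells was 104, 1931, 141 and 946 CPM. How many adipocytes were in the tissue and how many were captured cannot be told apart.

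Against AS, Car3 over all cells was 8.56-fold lower (8.04 to 9.12) in MTZ-treated and 2.14-fold lower (2.05 to 2.22) in MTZ-preventive. Inside adipocytes MTZ-preventive was 1.45-fold lower (1.38 to 1.52) than AS. After thinning every cell to 1000 UMIs, Car3 was detected in 100%, 80.7% and 62.3% of adipocytes in the library labelled Healthy, AS and MTZ-preventive (100%, 85.8% and 76.1% without thinning). The difference inside adipocytes depended on which adipocytes were counted. Brown-type cells, which carry markers such as Ucp1, had 2.72 times (2.5 to 2.96) the Car3 level of other adipocytes in AS (7606 against 2794 CPM) and 2.24 times (2.14 to 2.35) in MTZ-preventive (5228 against 2332 CPM). Without them the log2 ratio inside adipocytes moved from -1.06 to -1.62 for AS against the library labelled Healthy and from -0.53 to -0.26 for MTZ-preventive against AS. With looser cell limits and doublets kept, the first was -1.82 and the second -0.10.

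Outside adipocytes Car3 was present at lower levels. In AS it stood at 137.4 CPM (94.6 to 193) in smooth muscle, 131.5 CPM (107 to 160) in endothelial cells, 109 CPM (65.9 to 171) in macrophages, 68.4 CPM (27.5 to 141) in neutrophils and 43.3 CPM (27.4 to 64.9) in fibroblasts. The intervals of the first 4 overlapped, and these classes do not differ in their order beyond counting error. In the library labelled Healthy smooth muscle was at 0.539 CPM and fibroblasts at 5.94 CPM. The summed adipocyte markers were also higher in AS, at 366, 590, 242 and 239 CPM in smooth muscle, endothelial cells, macrophages and fibroblasts. In the library labelled Healthy the same classes held 150, 187, 16.4 and 27.6 CPM. Smooth muscle of the library labelled Healthy held more of the markers than its fibroblasts did, but less Car3, a level that rests on few UMIs. RNA outside cells gives UMIs in cells that do not express a gene, and its level here is read from B, T and NK cells, in which Car3 was at 2.10 CPM (1.37 to 3.07) in the library labelled Healthy, 6.58 CPM (1.36 to 19.2) in MTZ-treated and 24.6 CPM (20.2 to 29.6) in MTZ-preventive, while AS had 1 UMI in 26 such cells. Its part in the Car3 of other classes was not tested.

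Car3 also differed between classes of the same library. Fibroblasts of MTZ-treated held 62.9 CPM (55.6 to 70.9, 268 UMIs) where smooth muscle of the same library held 5.92 CPM, a ratio of 10.6 (6.42 to 18.9). Small vessel endothelial cells were above venous ones in every library, at 63.0 against 7.52 CPM in the library labelled Healthy, 190.6 against 99.2 CPM in AS, 97.2 against 18 CPM in MTZ-treated and 187.5 against 53.5 CPM in MTZ-preventive. The within-library ratios were 8.38 (3.35 to 27.0), 1.92 (1.13 to 3.42), 5.41 (3.30 to 9.14) and 3.50 (2.71 to 4.57). Summed adipocyte markers were also higher in small vessel than in venous cells, at 559 against 61.6 CPM in the library labelled Healthy and 818 against 227 CPM in MTZ-preventive.

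**Figure D2:**
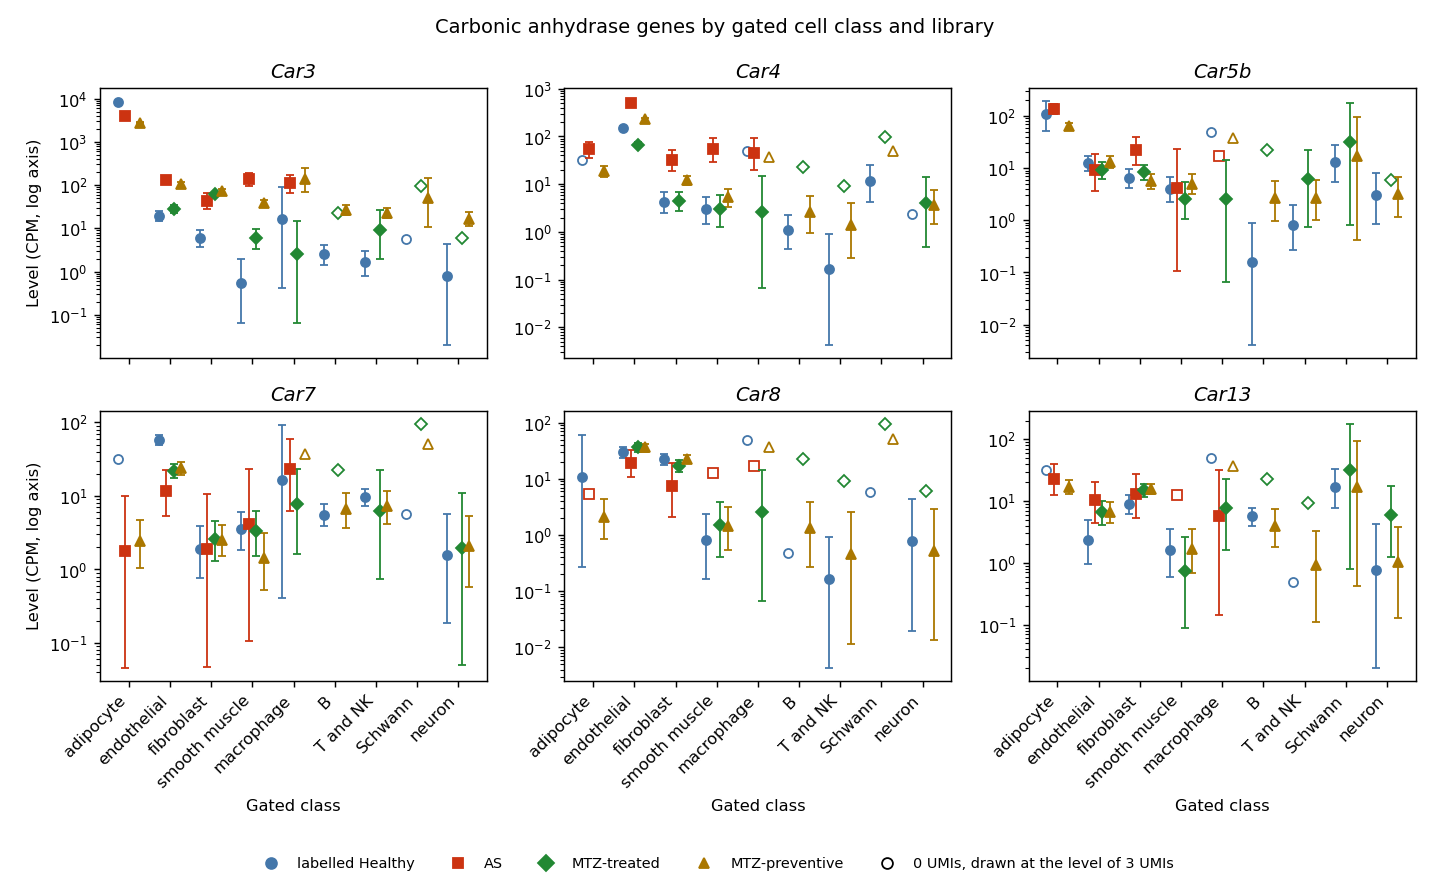
Level of 6 members in each cell class with at least 20 cells, in CPM on a log axis, by library, with 95% Poisson intervals for counting error; open symbols stand for 0 UMIs and are drawn at the level of 3 UMIs. Car3 and Car5b are highest in adipocytes. Car4 is highest in endothelial cells, Car7 too outside AS, and Car8 in endothelial cells and fibroblasts among the larger classes.

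Car4, the membrane-tethered form, was an endothelial transcript in all 4 libraries. In endothelial cells it was at 151.6 CPM (138 to 166, 448 UMIs in 857 cells) in the library labelled Healthy, 510.5 CPM (461 to 564, 392 UMIs in 495 cells) in AS, 67.1 CPM (58.8 to 76.2, 235 UMIs in 1672 cells) in MTZ-treated and 228.0 CPM (214 to 243, 964 UMIs in 1821 cells) in MTZ-preventive. None of the 4 intervals overlapped. Endothelial cells held 83.1%, 66.1%, 77.3% and 68.9% of all Car4 UMIs in the same order.

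AS was thus 3.37-fold higher (2.93 to 3.87) than the library labelled Healthy in endothelial cells, MTZ-treated was 7.61-fold lower (6.46 to 8.98) than AS, and MTZ-preventive was 2.24-fold lower (1.99 to 2.52) than AS. In endothelial cells 3 of 5 members with at least 20 UMIs passed 2-fold between AS and the library labelled Healthy (Car3 and Car4 higher, Car7 lower; 15.7% of genes), 2 of 6 in MTZ-treated against AS (Car3 and Car4 lower; 12.1%) and 2 of 6 in MTZ-preventive against AS (Car7 higher, Car4 lower; 11.5%).

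Inside the endothelium Car4 belonged to small vessel cells, the subset gated on Gpihbp1, Rgcc and other capillary genes. There it stood at 585.6 CPM (532 to 643) in the library labelled Healthy, 1130 CPM (1014 to 1256) in AS, 371 CPM (323 to 425) in MTZ-treated and 619 CPM (579 to 662) in MTZ-preventive. Arterial cells held 4.10, 81.0, 4.65 and 3.49 CPM and venous cells 4.51, 104, 8.98 and 11.8 CPM, so the small vessel level was 130 (44.1 to 632), 10.8 (6.90 to 18), 41.3 and 52.4 times the venous one. Lymphatic cells held no Car4 UMI in the library labelled Healthy and 32 in MTZ-preventive (147 CPM), of which 16 came from 1 cell. Small vessel cells were 27.1%, 39.8%, 20.6% and 37.4% of the endothelial cells, in the same order as the Car4 level of all endothelial cells. Within small vessel cells the differences were smaller, with AS 1.93-fold higher (1.67 to 2.23) than the library labelled Healthy, MTZ-treated 3.05-fold lower (2.56 to 3.64) than AS and MTZ-preventive 1.82-fold lower (1.61 to 2.07) than AS.

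The share of small vessel cells with a Car4 UMI, thinned to 1000 UMIs per cell, was 34.9% (28.8 to 41.4), 42.1% (35.1 to 49.4), 22.9% (18.6 to 27.7) and 32.5% (28.9 to 36.1), against 51.7%, 47.7%, 26.4% and 45.8% without thinning. Only the MTZ-treated interval stood clear of the other 3. In B, T and NK cells the thinned share was 0.0585% in the library labelled Healthy and 0.193% in MTZ-preventive, and no such cell had a Car4 UMI in MTZ-treated. AS had 1 Car4 UMI in 26 such cells (20.8 CPM, 0.526 to 116) and so sets no background. Among ungated cells the thinned share was 10.9% in AS and 1.28% in the library labelled Healthy. AS had higher Car4 in other classes too, with 54.1 CPM in smooth muscle and 32.0 CPM in fibroblasts (2.96 and 4.32 CPM in the library labelled Healthy). Adipocytes of AS held 53.5 CPM and macrophages 46.1 CPM. The library labelled Healthy had 0 Car4 UMIs in its 38 adipocytes and 31 macrophages. At the level of 3 UMIs this allows up to 32.2 and 49.1 CPM, so macrophages are not shown to differ. The AS values of arterial and venous cells, 81.0 CPM (37.1 to 154) and 104 CPM (63.8 to 161), overlapped those of smooth muscle (28.8 to 92.6), and the part of RNA outside cells was not tested.

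A looser cell filter shrank the Car4 difference in endothelial cells in each comparison. The difference no longer reached 2-fold in AS against the library labelled Healthy or in MTZ-preventive against AS. With over 500 UMIs and under 20% mitochondrial UMIs, the log2 ratio of Car4 in endothelial cells between AS and the library labelled Healthy fell from 1.75 to 0.24, because the doublet caller, rerun on the larger set, removed 456 of the 857 endothelial cells of the library labelled Healthy and 43 of the 495 of AS. With the same limits and doublets kept it was 1.71. The rerun also removed 592 of the 1672 endothelial cells of MTZ-treated and 397 of the 1821 of MTZ-preventive.

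**Figure D3:**
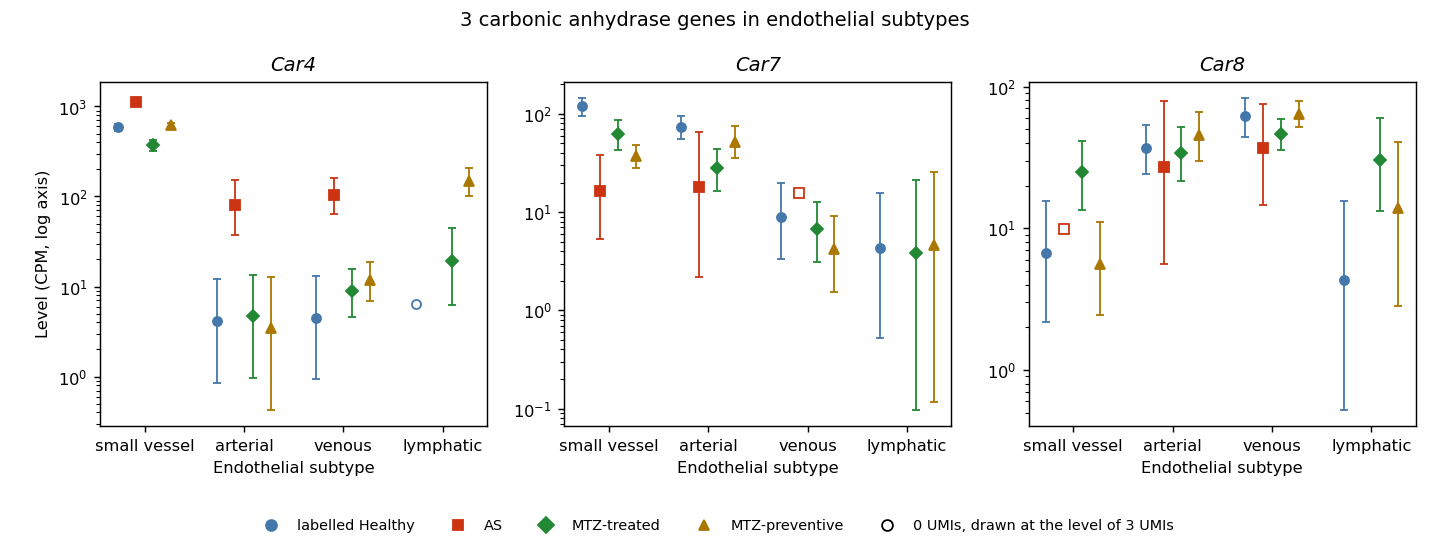
Levels of Car4, Car7 and Car8 in arterial, small vessel, venous and lymphatic endothelial cells, in CPM on a log axis, by library, with 95% Poisson intervals for counting error; open symbols stand for 0 UMIs and are drawn at the level of 3 UMIs. Car4 and Car7 are higher in small vessel than in venous cells, and Car8 is higher in venous than in small vessel cells.

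Car7, a cytosolic form best known from brain, was also highest in endothelial cells outside AS, and there it was lowest in AS, the reverse of Car4. Its endothelial level was 57.5 CPM (49.2 to 66.8, 170 UMIs) in the library labelled Healthy, 11.7 CPM (5.36 to 22.3, 9 UMIs) in AS, 22 CPM (17.3 to 27.5, 77 UMIs) in MTZ-treated and 23.9 CPM (19.5 to 29.0, 101 UMIs) in MTZ-preventive. AS was 4.91-fold lower (2.52 to 10.9) than the library labelled Healthy, whose interval stood above all others. MTZ-preventive was 2.04-fold higher (1.03 to 4.58) than AS, and for MTZ-treated the ratio to AS was 1.88 (0.938 to 4.26), with an interval that includes 1.

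Small vessel cells, which held 20% to 26.0% of all Car7 UMIs, were at 119 CPM (95.8 to 147) in the library labelled Healthy, 16.4 CPM (5.33 to 38.4) in AS, 61.8 CPM (43.1 to 86.0) in MTZ-treated and 37.2 CPM (27.9 to 48.7) in MTZ-preventive. There AS was 7.26-fold lower (3 to 22.9) than the library labelled Healthy and MTZ-treated was 3.76-fold higher (1.47 to 12.3) than AS, from 5 UMIs in AS. Arterial cells held 73.7, 18, 27.9 and 52.3 CPM, below small vessel cells in the library labelled Healthy and MTZ-treated and above them in AS and MTZ-preventive, although 1 arterial cell of the library labelled Healthy gave 24 of its 54 UMIs. Venous cells held 9.02 CPM in the library labelled Healthy, none in AS, 6.73 CPM in MTZ-treated and 4.17 CPM in MTZ-preventive. The small vessel to venous ratio was 13.2 in the library labelled Healthy, 9.19 in MTZ-treated and 8.92 in MTZ-preventive. Car7 was not absent from lymphocytes, with 5.52 CPM in B cells and 9.57 CPM in T and NK cells of the library labelled Healthy, and 0.741% of these cells had a Car7 UMI after thinning against 4.2% of endothelial cells (1.72% and 10.5% without thinning).

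Over all cells Car7 stood at 12, 6.8, 9.86 and 6.45 CPM in the library labelled Healthy, AS, MTZ-treated and MTZ-preventive. In AS it was 1.76-fold lower (1.17 to 2.76) than in the library labelled Healthy, and the ratios of both MTZ libraries to AS had intervals that include 1. In the looser cell filter the endothelial levels were 48.3, 13.4, 25.8 and 25.1 CPM, and the all-cell log2 ratio of -0.82 between AS and the library labelled Healthy shrank to 0.00.

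Car8, the acatalytic form, was found in endothelial cells and fibroblasts. Its endothelial levels were 29.8 CPM (23.9 to 36.7, 88 UMIs) in the library labelled Healthy, 19.5 CPM (10.9 to 32.2, 15 UMIs) in AS, 36.3 CPM (30.2 to 43.1, 127 UMIs) in MTZ-treated and 36.2 CPM (30.7 to 42.4, 153 UMIs) in MTZ-preventive. In fibroblasts they were 22.4 CPM (17.9 to 27.8), 7.52 CPM (2.05 to 19.3, 4 UMIs), 17.1 CPM (13.4 to 21.5) and 23 CPM (19.6 to 26.8). AS was lowest in both classes. In endothelial cells both MTZ libraries were 1.86-fold and 1.85-fold higher than AS (1.08 to 3.41 and 1.09 to 3.39), and AS and the library labelled Healthy could not be separated at this depth, with a ratio of 0.656 (0.352 to 1.14) and a log2 ratio that turned from -0.61 to 0.29 under the looser cell filter.

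In fibroblasts AS was 2.98-fold lower (1.12 to 11.2) than the library labelled Healthy and MTZ-preventive 3.05-fold higher (1.17 to 11.3) than AS, each resting on the 4 UMIs of AS. There 4 of 5 members with at least 20 UMIs passed 2-fold between AS and the library labelled Healthy (Car3, Car4 and Car5b higher, Car8 lower; 20.8% of genes), 3 of 5 in MTZ-treated against AS (15.8%) and 3 of 5 in MTZ-preventive against AS (17.6%), in both cases Car4 and Car5b lower and Car8 higher.

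Venous cells held 61.6 CPM (44.2 to 83.6), 36.5 CPM (14.7 to 75.3), 46.4 CPM (35.6 to 59.5) and 64.0 CPM (51.6 to 78.5) of Car8, arterial cells 36.9, 27.0, 34.1 and 45.4 CPM, and small vessel cells 6.70 CPM (5 UMIs), none, 24.7 CPM (14 UMIs) and 5.62 CPM (8 UMIs). The arterial and venous intervals overlapped in each library. The venous level was 9.20 times (3.64 to 29.8) the small vessel level in the library labelled Healthy, 1.87 times (1.04 to 3.63) in MTZ-treated and 11.4 times (5.54 to 27.2) in MTZ-preventive. B, T and NK cells had 1 Car8 UMI in the library labelled Healthy (0.0806 CPM) and 4 in MTZ-preventive (0.894 CPM). They had none in MTZ-treated, which allows up to 6.58 CPM, the level of 3 UMIs, used throughout as the bound for 0 UMIs. They had none in AS either, where the same bound is 62.3 CPM, so no background is set for the AS levels. No cell held more than 6 Car8 UMIs.

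Car5b, the mitochondrial form, followed Car3 in being highest in adipocytes. Its adipocyte level was 107 CPM (51.5 to 197, 10 UMIs) in the library labelled Healthy, 139 CPM (110 to 173, 78 UMIs) in AS and 65.5 CPM (57.1 to 74.9, 216 UMIs) in MTZ-preventive. The first 2 overlapped, with a ratio of 1.29 (0.668 to 2.81), whereas over all cells AS was 8.16-fold higher (6.31 to 10.6), from 4.23 to 34.5 CPM. MTZ-preventive adipocytes were 2.12-fold lower (1.62 to 2.76) than those of AS.

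After thinning, 5.26% (0.644 to 17.7), 12.2% (8.45 to 16.9) and 4.30% (3.04 to 5.87) of adipocytes had a Car5b UMI in the library labelled Healthy, AS and MTZ-preventive (18.4%, 19.7% and 18.8% without thinning). Of the 78 UMIs of AS, 13 came from 1 cell. Brown-type adipocytes were 2.54 times (1.58 to 4.06) other adipocytes in AS, and in MTZ-preventive the ratio was 1.39 (0.973 to 1.95). Endothelial cells held 9.12 to 13.2 CPM of Car5b in the 4 libraries, with overlapping intervals. In fibroblasts the level was 6.48, 22.6, 8.44 and 5.64 CPM, highest in AS from 12 UMIs. Of the adipocyte members with at least 20 UMIs, 2 of 3 passed 2-fold between AS and the library labelled Healthy (29.2% of genes). They were Car3, lower, and Car4, higher from 0 UMIs in the library labelled Healthy. The level of 3 UMIs allows up to 32.2 CPM of Car4 there, against 53.5 CPM in AS. A 2-fold difference is therefore not shown for Car4, and its place in the count rests on the 0. In MTZ-preventive against AS 2 of 5 passed (Car4 and Car5b lower; 16.1%).

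**Figure D4:**
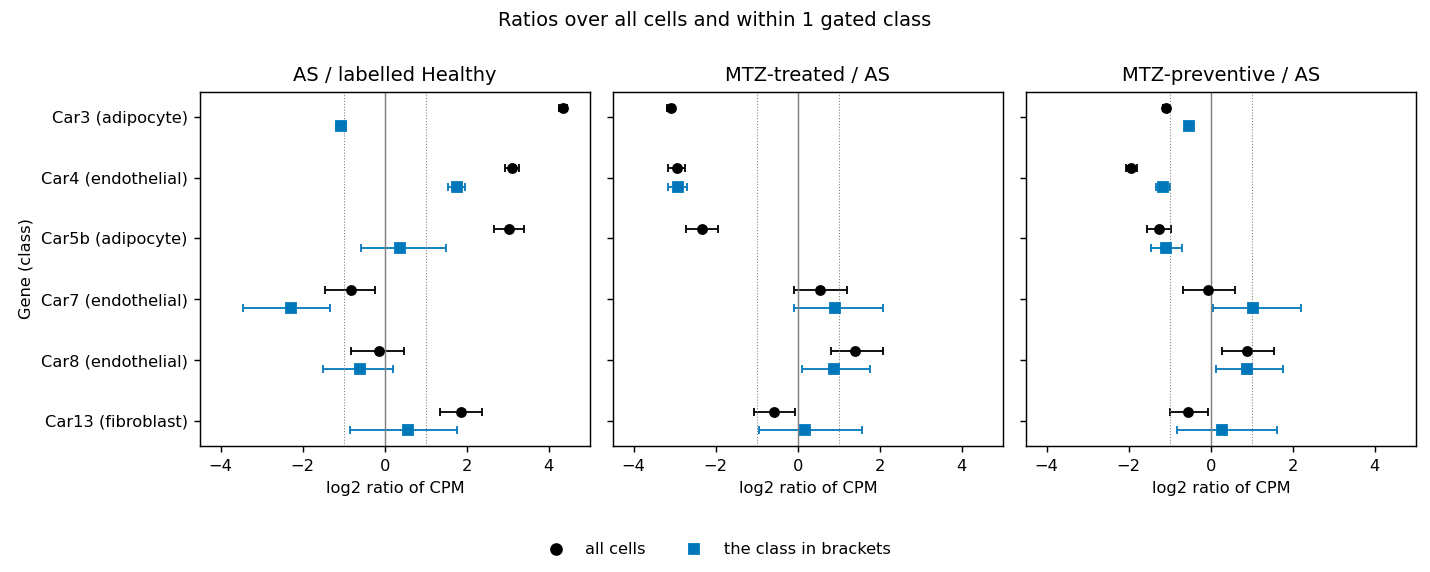
Log2 ratios between libraries for 6 members, over all cells (circles) and within the class named beside each gene (squares), with 95% conditional binomial intervals for counting error and dotted lines at 2-fold. Car3 lies far above 0 over all cells and below 0 in adipocytes for AS against the library labelled Healthy, and Car4 in endothelial cells lies above 0 in that comparison and below 0 in both MTZ libraries against AS.

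Car13 and Car2, both cytosolic, were low and spread over several classes. Car13 stood at 3.57 CPM (102 UMIs), 13.0 CPM (48 UMIs), 8.77 CPM (128 UMIs) and 8.92 CPM (296 UMIs) over all cells, 3.66-fold higher (2.54 to 5.20) in AS than in the library labelled Healthy. In fibroblasts the levels were 8.91, 13.2, 15 and 15.9 CPM, and the AS level was 1.48 times (0.551 to 3.40) the first of these. Adipocytes of AS and MTZ-preventive held 23.2 and 17 CPM. Among classes with at least 20 cells in at least 3 libraries, Schwann cells had the highest mean Car13 level. It rests on 4, 1 and 1 cells with a Car13 UMI in the library labelled Healthy, MTZ-treated and MTZ-preventive. B cells of the library labelled Healthy had 36 Car13 UMIs (5.68 CPM), where T and NK cells of the same library had 0 of 6059048 UMIs, which allows up to 0.495 CPM.

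Car2, the fast cytosolic form, was higher in lymphocytes than in endothelial cells. It stood at 11.1 CPM (8.57 to 14, 67 UMIs) in T and NK cells and 6.31 CPM (4.51 to 8.59, 40 UMIs) in B cells of the library labelled Healthy, a ratio of 1.75 (1.17 to 2.66). In MTZ-preventive the same classes stood at 9.09 and 7.91 CPM, with a ratio of 1.15 (0.577 to 2.30). Endothelial cells held 1.02 to 3.91 CPM in the 4 libraries. The highest level in a class of at least 20 cells was 80.3 CPM (21.9 to 206), from 4 UMIs in 28 mesothelial cells of MTZ-preventive. Over all cells Car2 was at 5.80, 1.90, 2.47 and 4.94 CPM in the library labelled Healthy, AS, MTZ-treated and MTZ-preventive. AS, with 7 Car2 UMIs and few lymphocytes, was 3.05-fold lower (1.45 to 7.71) than the library labelled Healthy.

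The 3 membrane-spanning forms were close to undetected. Car14 gave 38 UMIs, of which 15 lay in 196 Schwann cells of the library labelled Healthy (28.7 CPM, 16 to 47.3), where 14 cells (7.14%) held 1 or 2. Car12 gave 35 UMIs and none in AS, which allows up to 0.815 CPM there. T and NK cells held 13 of its 18 UMIs in the library labelled Healthy. Car9, a classical hypoxia gene, gave 19 UMIs in all, at 0.181 to 0.544 CPM per library, with no more than 3 in any class of 1 library. Its locus overlaps Tpm2 and Arhgef39, and that of Car14 overlaps Aph1a, so their few UMIs are uncertain. Differences in the 3 comparisons were not detectable at this depth for Car9, Car12 or Car14.

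Of the family's 6 other genes, Car1, the red cell form, had 0 UMIs in the kept cells, which allows up to 0.0905 to 0.815 CPM per library. Over all deposited barcodes, before the cell filters, Car1 had 1 UMI. No erythroid cell passed the gates, and the filters remove cells rich in red cell genes. Car11, like Car8 without catalytic activity, had 837 UMIs. It stood at 56.7, 21.9 and 43.5 CPM in neurons of the library labelled Healthy, MTZ-treated and MTZ-preventive, and at 25.6, 12.5 (3 UMIs), 32.9 and 27.3 CPM in smooth muscle of the 4 libraries. Over all cells it stood at 9.62, 3.53, 13.5 and 10.6 CPM, lowest in AS, with MTZ-treated 3.82-fold higher (2.18 to 7.30) and MTZ-preventive 3-fold higher (1.73 to 5.70) than AS. Neurons held 5.58% to 26.5% of its UMIs in the 3 libraries that had any, and smooth muscle 23.1% to 45.2% in all 4. AS had no gated neuron. Car15 gave 66 UMIs, and Car5a, Car6 and Car10 gave 1, 3 and 17.

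Genes that work beside the enzymes were read from lists of transporters, exporters and carboxylases. Of 14 bicarbonate transporters, 8 had at least 20 UMIs. In AS against the library labelled Healthy 1 passed 2-fold, Slc4a4, the sodium bicarbonate cotransporter, at 35.9 against 8.50 CPM (4.22-fold, 3.39 to 5.24), and the list's median log2 ratio was -0.08 beside -0.14 for all genes, of which 30.6% passed. In MTZ-treated Slc4a4 was at 14.3 CPM, 0.399 of AS (0.319 to 0.5). Slc4a10, from 77 UMIs in all and named after its values were seen, was the 1 gene past 2-fold upward. The median was 0.28 beside 0.10, and 17.9% of all genes passed 2-fold. In MTZ-preventive no transporter passed, with a median of 0.32 beside 0.11 (20.3% of all genes passed), and Slc4a4 was at 32.7 CPM. Slc4a2, an anion exchanger and the transporter with the most UMIs, varied from 19.9 to 24.4 CPM.

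Among 11 proton and lactate exporters, 1 was past 2-fold higher in AS than in the library labelled Healthy (Slc16a3, at 7.07 against 1.99 CPM) and 2 lower (Hvcn1, and Slc9a3, which had 39 UMIs and was named after its values were seen), of 9 with at least 20 UMIs, a share near the 30.6% of all genes, and with a median log2 ratio of -0.36. In MTZ-treated against AS 1 of 6 passed, Slc16a1, the lactate carrier MCT1, at 5.82 against 21.7 CPM, with a median of -0.03 (17.9% of all genes passed). In MTZ-preventive against AS 1 of 8 passed, Hvcn1, at 23.1 against 5.16 CPM, with a median of 0.12 (20.3% of all genes passed). Hvcn1, a proton channel, had its highest mean level in B cells, whose share was 28.1% of the cells in the library labelled Healthy, 0.787% in AS and 8.42% in MTZ-preventive. Bsg, the partner protein of the lactate carriers, stood at 336, 376, 544 and 390 CPM.

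Carboxylases use bicarbonate as a substrate, and 8 of 9 listed had at least 20 UMIs. Of these, 4 were past 2-fold higher in AS than in the library labelled Healthy (9.65% of all genes) and none lower, with a median log2 ratio of 0.83 beside -0.14 for all genes. They were pyruvate carboxylase Pcx (114 against 4.2 CPM), the acetyl-CoA carboxylases Acaca (52.5 against 12.6 CPM) and Acacb (48.1 against 4.51 CPM), and Mccc2 (13.9 against 6.40 CPM). The 4 were lower than AS in MTZ-treated (Pcx 4.38, Acaca 13.6, Acacb 8.70 and Mccc2 6.92 CPM), with a median of -0.98 beside 0.10 (6.18% of all genes were past 2-fold lower). In MTZ-preventive Pcx (31.4 CPM) and Acaca (24.9 CPM) were past 2-fold lower (5.13% of all genes), with a median of -0.40 beside 0.11. All 4 had their highest mean level in adipocytes, as Car3 and Car5b did, and the share of adipocytes moved with them. The adipocyte part in these ratios was not tested.

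Hypoxia genes, to which Car9 belongs, were counted the same way. Of 10 measured, 2 were past 2-fold higher in AS than in the library labelled Healthy (Vegfa, 248 against 39.0 CPM, and Bnip3, 154 against 24.6 CPM) and 2 lower (Pdk1, 15.2 against 30.6 CPM, and Ankrd37, 17.7 against 35.4 CPM), with a median of 0.07 and with 30.6% of all genes past 2-fold. In MTZ-treated Vegfa (46.9 CPM), Bnip3 (33.3 CPM) and Pdk1 (6.92 CPM) were past 2-fold lower than AS (17.9% of all genes past 2-fold), with a median of -0.44, and in MTZ-preventive none passed, with a median of 0.08. Ldha, the list's gene with the most UMIs, was at 265, 483, 303 and 418 CPM, and Pgk1 at 101, 96.2, 83.3 and 110 CPM.

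The genes whose levels were most like those of a member were found over 33 sums of a class in a library, from 13853 genes, by Pearson's r of log2(CPM + 1). These points share libraries, so r is a description. For Car3 they were Cyp2e1 (0.94), Adig (0.93) and Cfd (0.89), of which Adig and Cfd are known fat cell genes, and for Car5b they were Gpam (0.85), Clmn (0.83) and Mcrip2 (0.82). For Car4 they were Grrp1, Tmem252 and Fgfr3 (0.90 each), and for Car7 Fli1 (0.79), an ETS factor of endothelium, Trib3 (0.78) and Calcrl (0.78). Car8 was most like Gm36033 (0.87), Unc45bos (0.87) and Tfpi2 (0.86), Car13 most like Acot1 (0.82), Naprt (0.75) and Plscr2 (0.74), and Car2 most like 6230400D17Rik (0.78), Gm9970 (0.78) and Utf1 (0.76).

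The members lie apart in the genome except for a cluster on chromosome 3. There Car13 (chr3:14641727-14663002), Car1 (chr3:14766214-14808365), Car3 (chr3:14863538-14872381) and Car2 (chr3:14886269-14900770) follow each other in GRCm38.p6. Among classes with at least 20 cells in at least 3 libraries, the mean level was highest in adipocytes for Car3 and in T and NK cells for Car2, and Car1 had 0 UMIs. Car3 and Car5b each overlap a lncRNA, Gm41999 and Gm38561, and the reads of an overlap could not be checked in count tables.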

How the data were processed

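Single-cell gene expression was measured in 4 libraries of aortic cells, 1 per group, made with 10x Genomics chemistry. The deposited matrices hold UMI counts per gene and cell, made by the authors with Cell Ranger 5.0.0 and STAR on mm10, per the labels, with no normalization. The 8 antigen receptor libraries were not used here. Column totals after filtering gave the depth. A count of 0 is bounded by the level of 3 UMIs rather than by its Poisson limit. Over all cells this level was 0.105, 0.815, 0.205 and 0.0905 CPM in the library labelled Healthy, AS, MTZ-treated and MTZ-preventive.

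Cells were kept by the limits the study states, namely over 1000 UMIs, over 200 genes, log10 genes per UMI over 0.7, under 10% mitochondrial and under 5% red cell UMIs. Doublets (1218, 39, 416 and 2130 cells in the same order) were called as the cells most like simulated doublets in each library, with scikit-learn 1.9.0, and removed. Their number was set in advance at 0.8% per 1000 cells. The share removed therefore followed library size, at 9.87%, 1.77%, 5.77% and 13.1%, and was smallest in AS. Cells were classed by 192 markers in 13 classes, and counts were summed by class and library. Levels carry exact Poisson intervals, ratios conditional binomial ones and shares Clopper-Pearson ones, all at 95%. Genes were called past a fold of 2 where both libraries together had at least 20 UMIs. Sums, gates and intervals were tested on simulated data. These followed the same counting models as the intervals and held no doublets or RNA from other classes, so they check the code only. Python 3.11.15, numpy 2.4.6, scipy 1.17.1 and pandas 2.3.3 were used, and edgeR 4.0.16 for TMM factors only.

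All 10 members are named. From each partner list, the genes past 2-fold with at least 100 UMIs and the 2 with the most UMIs are named, and for each member with at least 100 UMIs the 3 genes of highest correlation. The members and lists were chosen with earlier results of these data known. Alternatives covered the cell filter, doublets, scaling, gene filter, gates and class weights.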

Additional observations from a re-analysis of the deposited data

Results flagged for a closer look

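Car3 was picked out because cell classes of the same pair of libraries moved in opposite directions. For AS against the library labelled Healthy its log2 ratio was 2.74 in endothelial cells, 7.99 in smooth muscle cells (from 2 UMIs in the library labelled Healthy), 2.86 in fibroblasts and 2.74 in macrophages (from 1 UMI), and -1.06 in adipocytes. For MTZ-preventive against AS it was -1.82 in smooth muscle cells and -0.53 in adipocytes, and 0.75 in fibroblasts. With 1 library per group the difference was not tested.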

How the results depend on the processing

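No ratio whose interval stood clear of 1 changed sign under an alternative. Among the others Car8 did for AS against the library labelled Healthy, from -0.15 to 0.84 over all cells and from -0.61 to 0.29 in endothelial cells with the looser filter, and small ratios of Car2, Car7 and Car13 crossed 0. No paired analysis was possible because each group is 1 library, and no replicate could be left out. For Car3 in adipocytes, log2 ratios moved by more than counting error in 4 settings for AS against the library labelled Healthy, where -1.06 became -0.85 with TMM factors, -0.57 as a mean over cells, -1.62 without brown-type cells and -1.82 with looser cell limits and doublets kept. For MTZ-preventive against AS the value of -0.53 became -0.13 with the looser filter, -0.46 without mitochondrial, ribosomal and hemoglobin genes, -0.40 as a mean over cells, -0.26 without brown-type cells and -0.10 with looser limits and doublets kept. For Car4 in endothelial cells, the looser filter gave 0.24, -2.11 and -0.64 for the 3 comparisons in place of 1.75, -2.93 and -1.16, the mean over cells 1.38, -2.52 and -0.91, and small vessel cells alone 0.95, -1.61 and -0.87. Without lymphatic cells the first was 1.54, and with doublets kept the last was -1.5. Levels in MTZ-preventive moved too. Car3 in adipocytes (2771 CPM) was 2882 with the looser filter, 2690 (2689.8) with doublets kept, 2893 with TMM, 3485 without mitochondrial, ribosomal and hemoglobin genes, 2877 with 4 markers and 2175 with clusters in place of gates. Car4 in endothelial cells (228.0 CPM) was 297, 184, 280 (279.7) without those genes, 252 as a mean over cells and 206 with clusters, where the first 2 are the looser filter and doublets kept. Without those genes Car5b in adipocytes was 82.4, Car7 in endothelial cells 29.3 and Car8 there 44.4 CPM. As a mean over cells Car5b was 56.9 and Car8 27.2 CPM, and with RNA outside cells subtracted Car7 was 17 CPM. With at least 100 UMIs, 1 transporter in place of 2 passed in MTZ-treated against AS and 1 exporter in place of 3 in AS against the library labelled Healthy, since fewer genes were tested. Apart from the doublet calls and the gene filter, the cause was not tested. The settings on brown-type, small vessel and lymphatic cells, on leaving out adipocytes and on looser limits with doublets kept were chosen after seeing the data. Members past 2-fold were 5 to 8 of 10 for AS against the library labelled Healthy, where 24.2% to 46.7% of all tested genes passed. They were 4 to 6 for MTZ-treated against AS (11.4% to 36.2% of genes) and 3 to 6 for MTZ-preventive against AS (13.1% to 39.2%). The highest counts, 8, 6 and 6, came with genes of at least 1 UMI, where these shares were also highest. In MTZ-preventive against AS, Car3 dropped out with the looser filter, with all barcodes and with classes weighted as in AS. Car5b dropped out with classes weighted as in AS and without adipocytes, and Car2 with all barcodes. TMM factors moved ratios by up to 0.21 (log2). Schwann cells apart, classes with at least 20 cells in 3 libraries were ranked by mean level in each setting. The first class stayed first for Car2, Car4, Car7 and Car8 in 8 of 8 settings and for Car3 and Car5b in 7 of 8. For Car13 adipocytes stayed first in 5 of 8. The setting with RNA outside cells subtracted takes the level of B, T and NK cells from every class. It thus removes most of the lymphocyte level itself (Car2 in T and NK cells, mean 11.9 to 1.79 CPM) and cannot judge their first place. For Car13 it takes 41.6 CPM from AS, a level that rests on 2 UMIs in 26 cells. Schwann cells had a higher mean Car13 level than adipocytes in the main setting, and their place in the other settings was not tested. With the looser filter too few adipocytes remained in the library labelled Healthy for that class to be ranked. Among the classes ranked there, macrophages led for Car3 and endothelial cells for Car5b. The depth of AS, the smallest library, limits every comparison of Car2, Car7, Car8, Car9, Car12 and Car14.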
